A study of Mus musculus with 38 samples.

Results

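The lipid uptake and fatty acid binding genes of brown adipose tissue comprised 10 members, taken by name: Lpl, Gpihbp1, Angptl4, Cd36, Fabp3, Fabp4, Fabp5, Slc27a1, Slc27a2 and Vldlr. All 10 were among the 29411 gene names of the array and among the 21623 genes tested, whose signal passed the scanner software's background test on 6 or more of the 38 arrays. C57BL/6J mice, weaned at 3 to 4 weeks of age, were split into 5 groups of 30 animals per the labels. The LFC group was fed a normal diet with 10% of its calories from fat, and the HFC group a high fat, high sucrose diet with 60% of its calories from fat. The HF5, HF20 and HF75 groups were fed that same high fat diet together with 5, 20 or 75 micrograms of the herbal formulation KAL-1, so every treated group shared the diet of HFC. LFC and HFC had 10 arrays each, at Days 6, 10 and 14 and at Weeks 0, 3, 6, 9, 12, 15 and 18. The 3 dose groups had 6 arrays each, at Weeks 3 to 18. Weeks were counted from Day 14 in the study's methods, so Day 14 and Week 0 are the same day. The labels give 1 array for each group and time point, and do not say how many animals were in it, so the time points of a group served as its replicates and p-values measure the spread between these arrays.

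Brown adipose tissue burns fatty acids to make heat, and it draws a large part of them from the blood. Lpl, the lipoprotein lipase made by adipocytes, frees fatty acids from circulating triglyceride-rich lipoproteins. Gpihbp1 is the endothelial protein that carries the lipase to the capillary wall, and Angptl4 is a secreted inhibitor of the lipase. Vldlr is a receptor that binds such lipoproteins. Cd36 is the scavenger receptor that helps long-chain fatty acids across the membrane, and Slc27a1 and Slc27a2 are fatty acid transport proteins that also activate fatty acids to their CoA esters. Fabp3, Fabp4 and Fabp5 bind fatty acids inside the cell. Fabp4 is the main form in adipocytes, and Fabp3, known from heart and muscle, is also abundant in brown fat. Many of these genes are known targets of the PPAR nuclear receptors.

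Each member was read by probes of 60 bases, and 5 of them are printed here, as given in the deposited scanner files, because the results turn on which probe was read or on a member that set the arrays apart. The pair of Fabp4 probes shows a spot past the top of the scanner's range on all 38 arrays (GT_Mm_44k_51_P336830, not the brightest probe of the gene, which was saturated on all 38 too) beside a probe of the same gene that was within range on all of them (GT_Mm_44k_52_P564544). The Lpl probe is the brightest of its gene without a saturated spot, and the Gpihbp1 and Slc27a2 probes belong to 2 of the 3 members whose signal differed most between bright and dim arrays.
Fabp4, saturated probe: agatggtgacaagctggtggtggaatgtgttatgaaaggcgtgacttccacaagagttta
Fabp4, unsaturated probe: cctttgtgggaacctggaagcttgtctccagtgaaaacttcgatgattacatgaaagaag
Lpl, unsaturated probe: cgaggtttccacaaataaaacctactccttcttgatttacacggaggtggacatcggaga
Gpihbp1: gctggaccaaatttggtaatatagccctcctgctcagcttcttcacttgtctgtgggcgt
Slc27a2: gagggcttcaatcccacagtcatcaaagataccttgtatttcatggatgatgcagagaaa
No letters are in capitals, since no motif was searched in them.

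Levels are given as log2 processed signal minus the 75th percentile of the same array, so that 0 is the level of a spot at that percentile and 1 unit is a 2-fold step. For each member the probe with the highest mean over the 38 arrays was read. That probe was well above background on 38 of 38 arrays for all 10 members. It was saturated on all 38 arrays for Fabp4, so its level was only a lower bound and no change was read from it. Fabp4 was therefore followed by its unsaturated probe, which was chosen after the saturation was seen, and counts of members in each comparison are over the 9 other members. The probe of Angptl4 was saturated on 11 arrays, that of Fabp3 on 9 and that of Lpl on 7, where a value is a lower bound. The other 6 members had no saturated spot.

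The arrays were not equally bright. Their 75th percentiles of processed signal lay between 35.1 and 1209, with a median of 183. A boundary at 600, placed after these values had been seen, divided them into 11 bright arrays, between 625 and 1209, and 27 dim arrays, between 35.1 and 430. Of the bright arrays, 4 were LFC, 2 were HFC, 0 were HF5, 4 were HF20 and 1 was HF75. Brightness thus moved with the dose groups, and its part in a result was not tested beyond the values given beside that result. Between 36.6% and 78.8% of spots were well above background.

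The tissue label was checked against markers of brown fat. Ucp1, the uncoupling protein of brown adipocytes, and Cidea, a lipid droplet protein abundant in them, were well above background on 38 of 38 arrays. On 37 arrays Ucp1 lay between 3.38 and 8.57 and Cidea between 5.58 and 8.77. On the array labelled HF75 Week 3 they lay at -3.07 and -1.78, and the mean of the 12 brown adipocyte markers was -2.90, against 0.55 to 4.11 on the 37 others. Cox8b, a heart and brown fat subunit of cytochrome oxidase, was at -2.01 there, against at least 4.04 elsewhere. Adipoq, the adipokine of all adipocytes, was at 4.16 on that array, within the range of 1.57 to 6.72 of the others but below the 10 other bright arrays (5.79 to 6.72). Its adipocyte list averaged 2.23, against 3.81 to 4.87 on those 10, and its macrophage list 0.66, against at most 0.32 on the 37 others. Its 12 skeletal muscle markers averaged -2.85, within the range of -4.95 to 5.26. Its endothelial list averaged 4.01, above the 10 other bright arrays (0.92 to 2.125). Its erythroid list averaged -0.36, against at least -0.16 on the 37 others. That array went against its tissue label, and the HF75 values, dose comparisons and bright-array values that moved most with it are given without it too. It entered no comparison of LFC with HFC over 10 time points.

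Lpl, the lipase itself, was well above the 75th percentile of every array. Its level averaged 5.67 ± 0.45 (SD, n = 10) in LFC, 5.60 ± 0.65 (n = 10) in HFC, 5.72 ± 0.96 (n = 6) in HF5, 6.13 ± 0.53 (n = 6) in HF20 and 5.51 in HF75, whose 6 arrays ran from 4.01 to 7.05. By the unsaturated probe the means were 4.29, 4.11, 3.98, 4.94 and 3.74 in the same order, with SDs between 0.66 and 0.83. By either probe the groups overlapped, and HF20, with 4 bright arrays of 6, had the highest mean. On dim arrays alone HF5, HF20 (n = 2) and HF75 averaged 3.98, 3.99 and 3.97 by the unsaturated probe. By the other probe these were 5.72, 5.76 and 5.81. At Week 18 the 2 probes stood far apart in HF75 (7.05 and 3.20) and HF5 (6.93 and 3.55), beside 5.98 and 4.70 in LFC. Without the Week 3 array HF75 averaged 5.81 ± 0.91 (n = 5), and 3.97 ± 0.60 by the unsaturated probe.

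Gpihbp1, the endothelial anchor, spread widely in LFC, HFC and HF20. In LFC it had its lowest value at 3.93, its median at 6.60 and its highest at 8.04. In HFC these were 4.39, 6.74 and 7.97. The 6 HF5 arrays lay between 7.27 and 8.15 with a median of 7.88, and the 6 HF75 arrays between 5.84 and 7.88 with a median of 7.77, the lowest being the Week 3 array. Without it HF75 averaged 7.69 ± 0.31 (n = 5). The 6 HF20 arrays ran from 4.02 to 7.69 with a median of 4.86. HF20 thus held 4 low arrays (4.02 to 5.09) and 2 high ones (7.58 and 7.69), and every HF5 array was higher than its 4 low arrays.

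Angptl4, the lipase inhibitor, averaged 6.83 ± 0.71 (SD, n = 10) in LFC, 6.82 ± 0.75 (n = 10) in HFC, 7.30 ± 0.68 (n = 6) in HF5, 6.58 ± 0.30 (n = 6) in HF20 and 6.84 ± 1.08 (n = 6) in HF75. Saturated spots were read on 4 LFC, 2 HFC, 4 HF20 and 1 HF75 arrays, so the means of those groups are lower bounds and their SDs uncertain. The recorded values of all 5 groups overlapped. They ran from 5.44 in HFC to 8.30 in HF5, and which array was truly highest is not known.

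Vldlr, the lipoprotein receptor, fell into high and low arrays in most groups. In LFC its lowest, median and highest values were -1.55, 0.46 and 4.77. In HFC they were -1.01, 0.46 and 4.63, and in HF20 they were 0.54, 3.61 and 5.23. HF5 lay between 0.09 and 1.21 with a median of 0.59, and HF75 between -0.60 and 1.61 with a median of 0.13. The medians of LFC and HFC were equal to 2 decimals while their means, 1.72 and 1.03, were set apart by the number of high arrays in each.

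Cd36, the fatty acid receptor, averaged 5.43 ± 0.50 (SD, n = 10) in LFC, 5.65 ± 0.61 (n = 10) in HFC, 6.12 ± 0.59 (n = 6) in HF5, 5.48 ± 0.74 (n = 6) in HF20 and 6.42 ± 0.66 (n = 6) in HF75. HF75 had the highest mean and LFC the lowest, and their ranges, 5.86 to 7.65 and 4.71 to 6.08, still overlapped.

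Of the transporters, Slc27a1 had group means close to the 75th percentile, between -0.51 ± 1.18 (SD, n = 6) in HF75, or -0.15 ± 0.87 (n = 5) without its Week 3 array, and 0.54 ± 0.72 (n = 6) in HF20. Slc27a2 had its lowest, median and highest values at -2.21, -0.89 and 4.28 in LFC and at -1.65, -0.41 and 3.59 in HFC. It ran from 0.09 to 4.24 with a median of 2.72 in HF20 and from -4.65 to 0.59 with a median of -0.85 in HF75, whose lowest value was the Week 3 array. The other 5 HF75 arrays lay between -0.96 and 0.59. Like Vldlr, Slc27a2 had several arrays far above the others in LFC, HFC and HF20.

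Of the binding proteins, Fabp3 had the widest spread. Its lowest, median and highest values were 2.16, 3.01 and 6.58 in LFC and 3.60, 5.42 and 6.51 in HFC. They were 3.54, 5.67 and 7.05 in HF5, and 5.53, 6.26 and 6.43 in HF20. In HF75 they were -1.24, 4.31 and 5.15, and the lowest was again the Week 3 array, without which they averaged 4.53 ± 0.47 (n = 5). The median of LFC was below that of every other group, but its highest arrays overlapped all of them.

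Fabp4 by its unsaturated probe averaged 5.43 ± 0.30 (SD, n = 10) in LFC, 5.35 ± 0.39 (n = 10) in HFC, 5.84 ± 0.35 (n = 6) in HF5, 5.65 ± 0.38 (n = 6) in HF20 and 5.44 ± 0.66 (n = 6) in HF75, a range of under 1 unit between group means. Fabp5, a more widely expressed binding protein, lay between -0.33 and 0.85 in LFC with a median of 0.45, and between -1.29 and 1.38 in HFC with a median of 0.64. It lay between 0.83 and 1.62 in HF5 and between 0.87 and 1.75 in HF75, with medians of 1.21 and 1.08. In HF20 it ran from -1.92 to 1.19 with a median of -0.45. Over the 10 members, 40 pairs of neighbouring group means were formed in the order of levels, and 1 of them, Fabp5 in HF75 over LFC, differed by more than the larger SD of the pair.

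**Figure D1:**
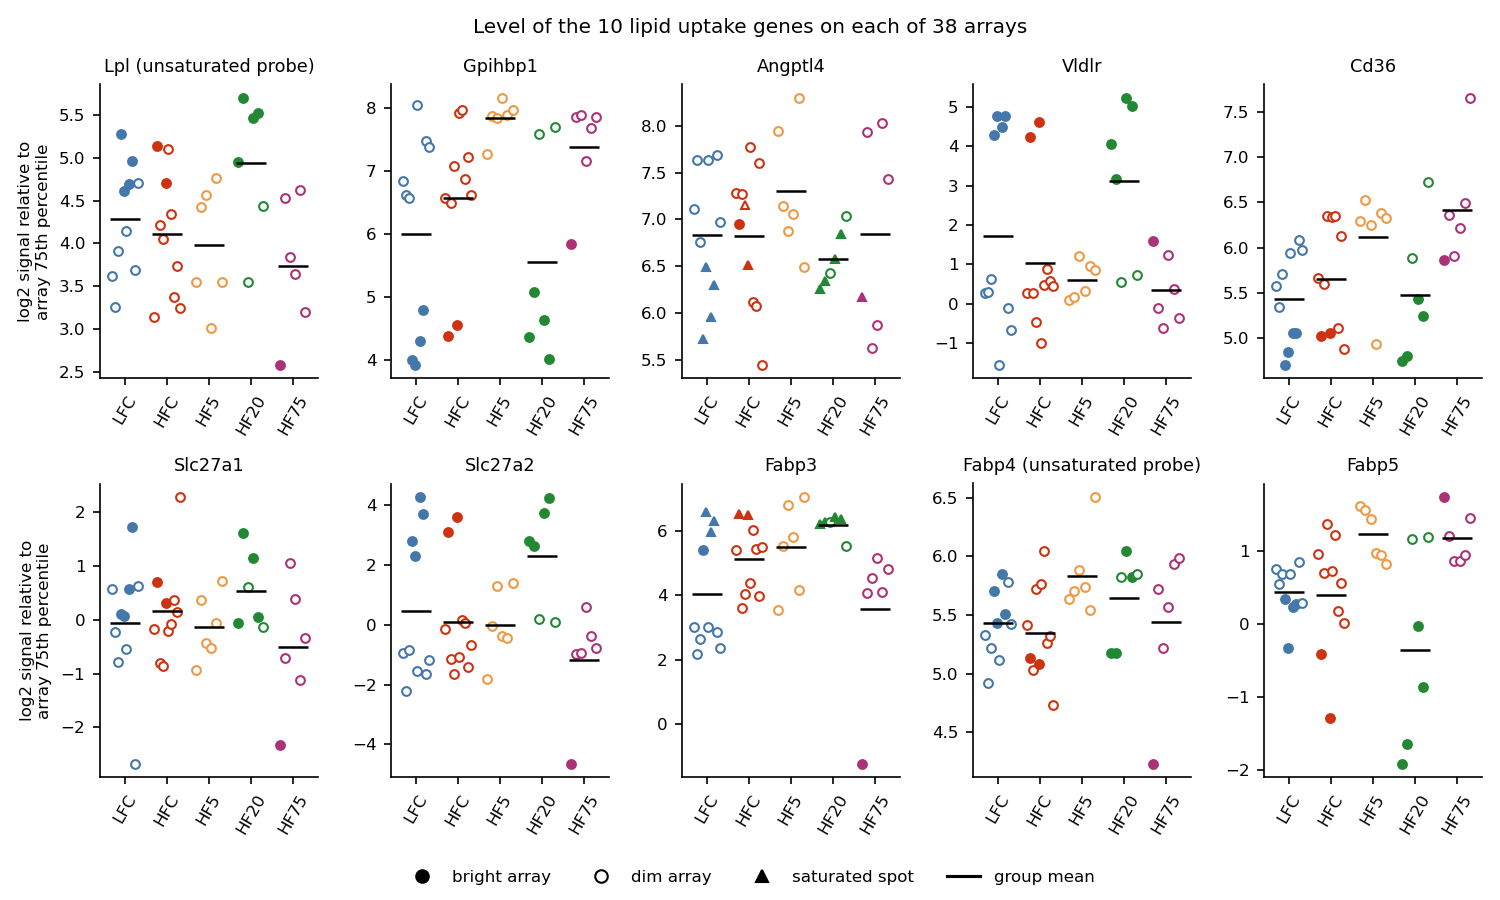
Level of each of the 10 members on all 38 arrays, as log2 processed signal relative to the array's 75th percentile, by group. Filled points are bright arrays, open points dim arrays, triangles saturated spots and lines group means. Lpl and Fabp4 are shown by their unsaturated probes, and Vldlr, Slc27a2 and Gpihbp1 show filled points apart from open ones.

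The first comparison asked which of these genes the high fat, high sucrose diet altered. None of the 9 members passed the test for HFC against LFC over 10 time points (0 of 9, against 0% of all genes tested), with limma and the time point as a block. At an unadjusted p under 0.05, 6.58% of all genes and 0 of 9 members passed. The member with the smallest p was Fabp3, which was higher in HFC by 1.11 on the log2 scale (SE 0.52, 95% interval -0.02 to 2.24, adjusted p = 0.664). The 8 other members had adjusted p-values between 0.713 and 0.991.

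Around the lipase, the differences between HFC and LFC were small or uncertain. Lpl differed by -0.08 (SE 0.29) and by -0.18 (SE 0.33) with the unsaturated probe. Gpihbp1 differed by 0.57 (SE 0.52) and Angptl4 by -0.01 (SE 0.25). Vldlr differed by -0.69 (SE 0.77), and its differences at single time points ran from -4.75 to 3.95. The intervals of Lpl, Angptl4, Cd36 and Fabp5 were narrow beside those of Vldlr and Slc27a2. For Lpl and for Angptl4, 4 of the 10 time points held a saturated spot, where values are capped. Their differences and intervals are uncertain to that extent.

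Among the transporters and binding proteins, Cd36 differed by 0.22 (SE 0.25), Slc27a1 by 0.23 (SE 0.38) and Slc27a2 by -0.39 (SE 0.83). Fabp5 differed by -0.03 (SE 0.23), and Fabp4 by the unsaturated probe by -0.08 (SE 0.17, adjusted p = 0.870). Of the 9 members, 4 had a positive and 5 a negative difference, and their median was -0.01 beside 0.05 for all genes tested.

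HFC and LFC arrays were in the same brightness class at 6 of the 10 time points. Arrays of 1 class are called equal in brightness below. Their 75th percentiles still differed, as at Week 18 with 148 in LFC and 49.8 in HFC. With the class in the model, 7 of 9 members had a positive difference, and the difference of Vldlr was 0.16 (SE 0.19) and that of Gpihbp1 0.02 (SE 0.20). Slc27a2 then differed by 0.53 (SE 0.17, p = 0.0105 from limma, adjusted p = 0.640). Fabp3 differed by 1.60 (SE 0.30, 95% interval 0.92 to 2.27, 3.02-fold, p = 0.000316 from limma, adjusted p = 0.261). Neither passed after adjustment, as for 0% of all genes. At 4 of the 10 time points 1 or both Fabp3 spots were saturated, where values are capped. The size, SE, interval and p of Fabp3 are therefore uncertain, with or without the class. At an unadjusted p under 0.05, 2 of 9 members and 7.12% of all genes passed in this model.

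Fabp3 read higher in HFC at 7 of 10 time points. At 1 of these, Week 9, the LFC spot was saturated, so the direction there is not known, and at Week 3 both spots were saturated. In the early phase, HFC and LFC stood at 5.41 and 3.01 on Day 6, at 6.51 and 2.16 on Day 10, and at 3.60 and 2.64 on Day 14. At Week 0 they stood at 4.03 and 5.40, at Week 3 at 6.49 and 6.58, and at Week 6 at 4.38 and 3.00. At Week 9 they were 6.02 and 5.96, at Week 12 5.43 and 6.30, at Week 15 3.99 and 2.84, and at Week 18 5.51 and 2.37. The low LFC values were all dim arrays, and the LFC values of Weeks 0, 3, 9 and 12 were the 4 bright ones. The spots of HFC on Day 10, of both diets at Week 3 and of LFC at Weeks 9 and 12 were saturated.

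Among dim arrays alone, the 6 LFC values of Fabp3 lay between 2.16 and 3.01, and the 8 HFC values between 3.60 and 6.02. The groups did not overlap, which held for 1 of 9 members, in the direction of higher HFC, and for 0.0832% of all genes. The 21 dim arrays of all 4 high fat groups lay between 3.54 and 7.05, also above every dim LFC array, which held for 0.0185% of all genes. The separation of LFC and HFC was seen in quantile normalized values too, where it held for 0.0647% of all genes. With normexp background correction it was not seen for any member (0 of 9, against 0.00462% of all genes). Since the boundary and the members were chosen with the values known, no test was made of this separation. Within the dim class, 75th percentiles ran from 148 to 367 in LFC and from 35.1 to 430 in the high fat groups. At Weeks 9 and 18, with 48.3 and 49.8, Fabp3 in HFC was at 6.02 and 5.51. On Day 14 and at Week 0, with 358 and 430, it was at 3.60 and 4.03. On Day 6, with 167 in HFC and 189 in LFC, it was at 5.41 and 3.01. The part of brightness within the class was not tested.

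Markers of the cells that make Fabp3 were set beside it. On the dim arrays Ucp1 had its lowest, median and highest values at 3.38, 5.17 and 6.27 in LFC and at 5.07, 6.63 and 8.24 in HFC, so those groups overlapped. Of the 12 brown adipocyte markers, 6 were higher and 6 lower in HFC than in LFC over the 10 time points, with a median difference of -0.01. At an unadjusted p under 0.05, 3 were higher and 1 lower, and 0 passed after adjustment. The skeletal muscle list, a second known site of Fabp3, averaged between -2.45 and 0.08 on the dim LFC arrays and between -2.25 and 1.17 on the dim HFC arrays. With that list in the model, Fabp3 differed by 1.08 (adjusted p = 0.717). The part of these markers in the Fabp3 difference was not tested further, and in bulk tissue fewer cells of a type and less RNA per cell cannot be told apart.

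**Figure D2:**
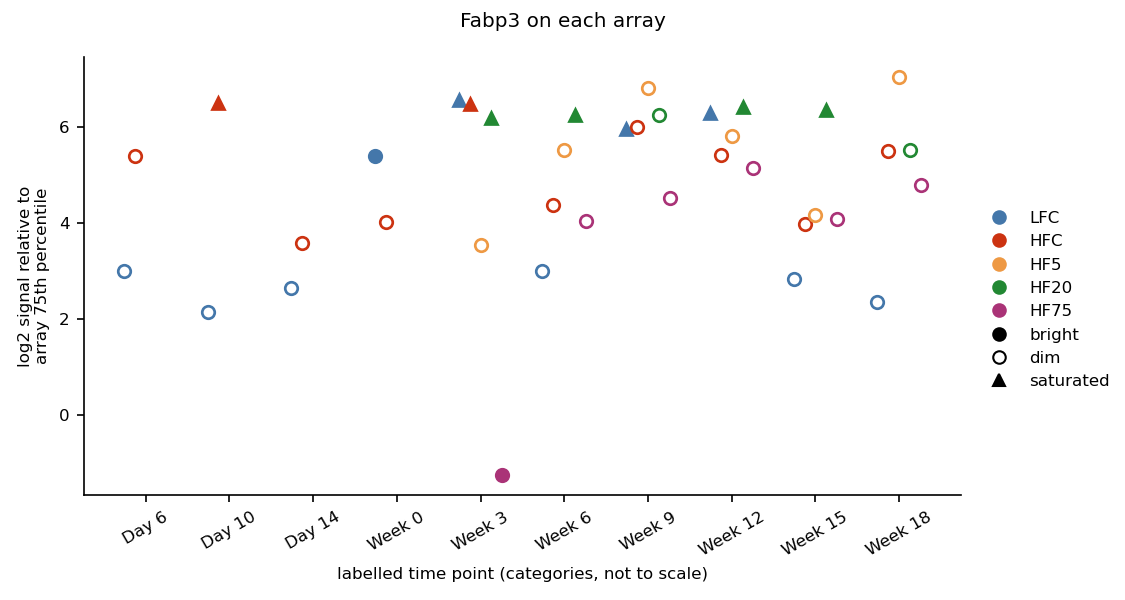
Fabp3 level (log2 relative to the array's 75th percentile) at each labelled time point, in all 5 groups. Filled points are bright and open points dim arrays, and triangles are saturated spots. The open LFC points lie between 2.16 and 3.01, under all open points of the high fat groups, and the HF75 point of Week 3 lies at -1.24.

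The probe of Fabp3 could not be told apart from that of a second gene name. The 14 member probes were compared with all 40628 probes of the array, for overlaps of at least 30 bases with at most 3 mismatches. A probe of LOC100047867 shared 42 bases with the Fabp3 probe with 2 mismatches. Over the 38 arrays both had a mean of 4.81 to 4.82 and both were saturated on 9 arrays. Values given for Fabp3 may therefore hold signal from either.

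Weeks 3 to 18 were compared in a fit of 30 arrays in which the 5 groups shared 1 estimate of the spread. For HFC against LFC, 0 of 9 members passed, against 0.00925% of all genes, and the members' differences lay between -0.95 and 0.87. Gpihbp1 differed by 0.87 (SE 0.60, adjusted p = 0.463), Vldlr by -0.95 (SE 0.91, adjusted p = 0.592) and Slc27a1 by 0.51 (SE 0.53, adjusted p = 0.622). With that class added to the model, the differences of Gpihbp1 and Vldlr turned sign, to -0.04 and 0.44. Unadjusted, 0 of 9 members and 13.9% of all genes passed.

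Some members differed strongly between bright and dim arrays. Vldlr averaged 4.21 on bright and 0.21 on dim arrays, a difference of 3.99 (15.9-fold), and a difference of that size or larger was found in 0.823% of all genes. Slc27a2 averaged 2.59 and -0.61, a difference of 3.20 (3.26% of genes), and Gpihbp1 4.54 and 7.42, a difference of -2.88 (5.02% of genes). The receptor and the transporter were thus higher on bright arrays and the endothelial anchor lower. Without the array labelled HF75 Week 3 these differences were 4.25, 3.92 and -3.01.

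The other members differed less. Fabp5 was lower on bright arrays by 1.27 and Cd36 by 0.96, and Fabp3 was higher by 1.06, beside a median size of 0.90 over all genes tested. Without the HF75 array of Week 3 Fabp3 was higher by 1.74, beside a median size of 0.97, and its 9 saturated spots were all on bright arrays, so these sizes are lower bounds. Without that array Fabp5 differed by -1.48 and Cd36 by -1.04. Lpl by the unsaturated probe was higher by 0.94 (1.17 without it), and Fabp4 by the unsaturated probe differed by -0.19 (-0.07 without it). These differences are relative to each array's 75th percentile, and the median of all genes tested differed by -0.31.

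All 11 bright arrays lay above all 27 dim arrays for Vldlr, as for 0.527% of all genes, and below them for Gpihbp1, as for 2.25%. Without the array labelled HF75 Week 3, Slc27a2 also lay above on all 10 bright arrays, as for 6.47% of all genes. With normexp correction Vldlr remained without overlap and Gpihbp1 did not. Markers of other cells moved with brightness. The 8 measured of 9 endothelial markers averaged 1.79 on bright and 4.39 on dim arrays, and the 7 adipocyte markers 4.22 and 2.03. The 5 measured of 6 erythroid markers averaged 0.45 and 3.58, the 12 brown adipocyte markers 2.77 and 1.70, the 12 skeletal muscle markers 0.07 and -0.63 and the 7 macrophage markers -0.64 and -0.91. Gpihbp1 thus differed in the same direction as the endothelial list. The part of cell make-up in these differences was not tested.

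**Figure D3:**
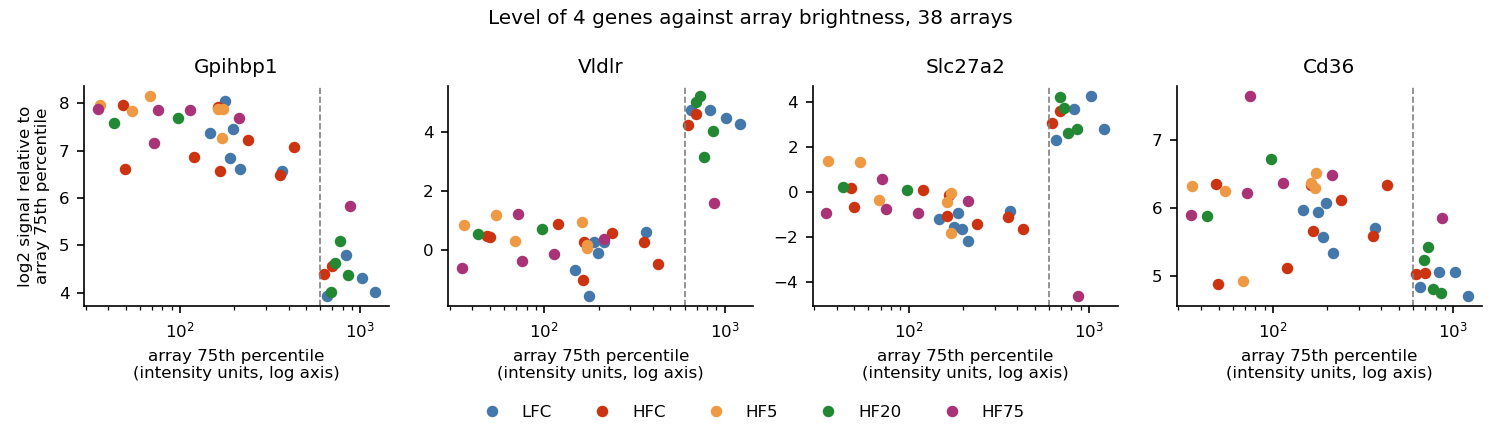
Level of Gpihbp1, Vldlr, Slc27a2 and Cd36 (log2 relative to the array's 75th percentile) against that 75th percentile, on a log axis of intensity, for 38 arrays coloured by group. The dashed line is the boundary at 600. Vldlr and Slc27a2 sit higher and Gpihbp1 lower to its right, and the Slc27a2 point at -4.65 is the HF75 array of Week 3.

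The next comparisons asked whether KAL-1 altered these genes on the high fat diet. HF5, HF20 and HF75 were each compared with the same 6 HFC arrays of Weeks 3 to 18, so their differences share those controls. For HF5, 0 of 9 members passed, against 0% of all genes. Fabp5 was 1.99-fold higher (95% interval of the log2 difference 0.09 to 1.91, p = 0.0333 from limma, adjusted p = 0.815), at 6 of 6 weeks. Angptl4 was higher by 0.72 (SE 0.35) and Gpihbp1 by 0.97 (SE 0.60), both with an adjusted p of 0.815. The 6 other members lay between -0.61 and 0.47. With the brightness class in the model Fabp5 differed by 0.81 (adjusted p = 0.517), Angptl4 by 0.58 and Gpihbp1 by 0.51. Without Week 3, where the HFC array alone was bright, they differed by 0.61, 0.57 and 0.62. Unadjusted, 1 of 9 members and 5.51% of all genes passed.

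For HF20, 0 of 9 members passed, against 0% of all genes, and 2 of 9 members and 32.6% of all genes passed unadjusted. Vldlr was higher by 2.12 (SE 0.91, adjusted p = 0.128), Gpihbp1 lower (a difference of -1.29, SE 0.60, adjusted p = 0.143) and Slc27a2 higher by 2.18 (SE 1.09, adjusted p = 0.163). These were the 3 members that brightness set most apart, and 4 of the 6 HF20 arrays were bright against 1 of the 6 HFC arrays of those weeks. With the class in the model Vldlr differed by 0.03, Gpihbp1 by 0.08 and Slc27a2 by 0.29. At the 3 weeks with both arrays in 1 brightness class they differed by -0.07, 0.16 and 0.01.

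For HF75, 0 of 9 members passed, against 0% of all genes, and 2 of 9 members and 9.28% of all genes passed unadjusted. Cd36 was higher by 0.77 (SE 0.34, adjusted p = 0.531), at 5 of 6 weeks, and by 0.37 without Week 18. Fabp5 was higher by 0.95 (SE 0.44, adjusted p = 0.534), at 5 of 6 weeks, and by 0.67 without the array labelled HF75 Week 3. Fabp3 differed by -1.74 (SE 0.86, adjusted p = 0.544), lower at 5 of 6 weeks, and by -0.71 (adjusted p = 0.840) without that array. Cd36 differed by 0.79 without it. HF75 and HFC were in the same brightness class at all 6 weeks, so adding the class to the model could not change these differences. Their 75th percentiles still differed, as at Week 12 with 71.7 in HF75 and 119.7 in HFC.

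**Figure D4:**
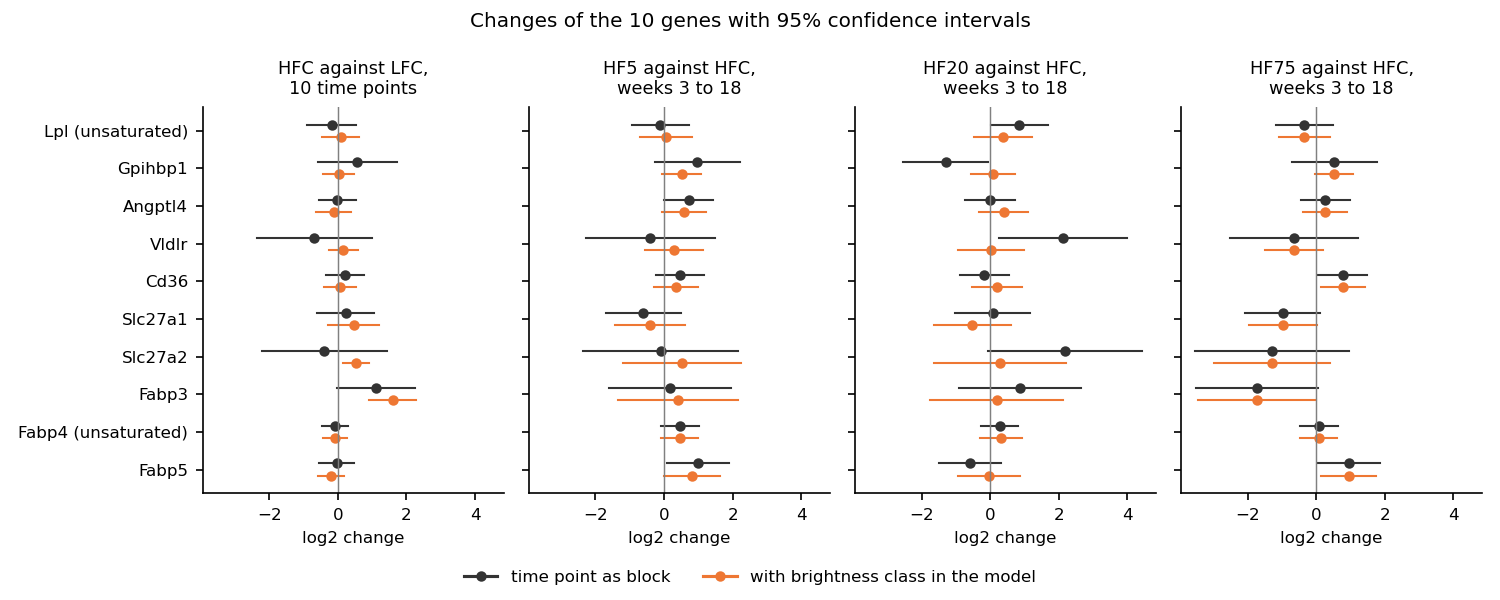
Difference of each member in log2 units, with its 95% interval, for HFC against LFC over 10 time points and for HF5, HF20 and HF75 against HFC over Weeks 3 to 18. Black is the fit with the time point as a block and orange the fit with the brightness class added. Vldlr, Slc27a2 and Gpihbp1 in HF20 lie away from 0 in black and near 0 in orange, and the Fabp3 difference between diets goes from 1.11 to 1.60.

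Differences among the 3 doses were tested at matched weeks by limma's moderated F test. Fabp5 and Gpihbp1 passed (2 of 9 members, against 13.6% of all genes). Fabp5 was lower in HF20 than in HF5 (a difference of -1.58, SE 0.44) and differed by -0.05 between HF75 and HF5 (adjusted p = 0.0365). Gpihbp1 was lower in HF20 than in HF5 (-2.27, SE 0.60) and differed by -0.45 between HF75 and HF5 (adjusted p = 0.0377). Vldlr was higher in HF20 by 2.52 (SE 0.91, adjusted p = 0.0569).

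The values at the 6 weeks were as follows. Gpihbp1 in HF20 was at 4.37, 5.09, 4.63 and 4.02 at Weeks 3, 6, 12 and 15, and in HF5 at 7.27, 7.87, 8.15 and 7.88 at the same weeks. At Weeks 9 and 18 HF20 was at 7.58 and 7.69 and HF5 at 7.83 and 7.96. Fabp5 in HF20 was at -1.92, -1.64, -0.02 and -0.87 at Weeks 3, 6, 12 and 15 and at 1.17 and 1.19 at Weeks 9 and 18. The 4 low weeks were those of the bright HF20 arrays. Once the brightness class was added, 0 of 9 members passed, against 0% of all genes, and the difference between HF20 and HF5 was -0.85 for Fabp5 (adjusted p = 0.532) and -0.44 for Gpihbp1 (adjusted p = 0.791). Without the array labelled HF75 Week 3 also 0 of 9 members passed, with adjusted p-values of 0.0642 for Fabp5 and 0.0660 for Gpihbp1. No HF5 array was bright, so the class and that dose can be separated only through the other groups.

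Trends over the course were fitted to LFC and HFC together, per 100 days on the diet. No member passed (0 of 9, against 1.43% of all genes). Gpihbp1 had a slope of 0.84 (SE 0.63, adjusted p = 0.468), Lpl of -0.31 (SE 0.28, adjusted p = 0.556) and Slc27a1 of 0.52 (SE 0.47, adjusted p = 0.560). A test of whether the diet difference itself moved with the day called 0 of 9 members and 0% of all genes. In it Lpl had -1.10 (SE 0.54, adjusted p = 0.378), Angptl4 -0.91 (SE 0.48, adjusted p = 0.411) and Slc27a1 1.26 (SE 0.76, adjusted p = 0.494) per 100 days. Once the class was added to that model, 3.04% of all genes passed and 0 of 9 members, the smallest adjusted p being 0.0563 for Vldlr.

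At single time points, with 1 array per diet and so no test, 33 of 90 differences between HFC and LFC (36.7%) were past 2-fold, against 33.1% of the values of all genes. At the 6 time points of equal brightness 12 of 54 (22.2%) were, against 20.9% of all genes. At the 4 others 21 of 36 (58.3%) were, against 51.5%. These pooled shares were near those of all genes. At single time points they ran from 0 of 9 members on Day 14, against 18.4% of all genes, to 7 of 9 at Week 0, against 49.2%. At Week 18 both arrays were dim, with 75th percentiles of 148 in LFC and 49.8 in HFC. There 6 of 9 members were past 2-fold, against 43.4% of all genes. Fabp3 was past 2-fold higher on Days 6 and 10 and at Weeks 6, 15 and 18, and past 2-fold lower at Week 0. Vldlr and Slc27a2 were past 2-fold lower at Weeks 0, 9 and 12, where the LFC array alone was bright, and higher on Day 10, where the HFC array alone was. Vldlr was also past 2-fold higher at Week 18 and Slc27a2 at Week 3.

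**Figure D5:**
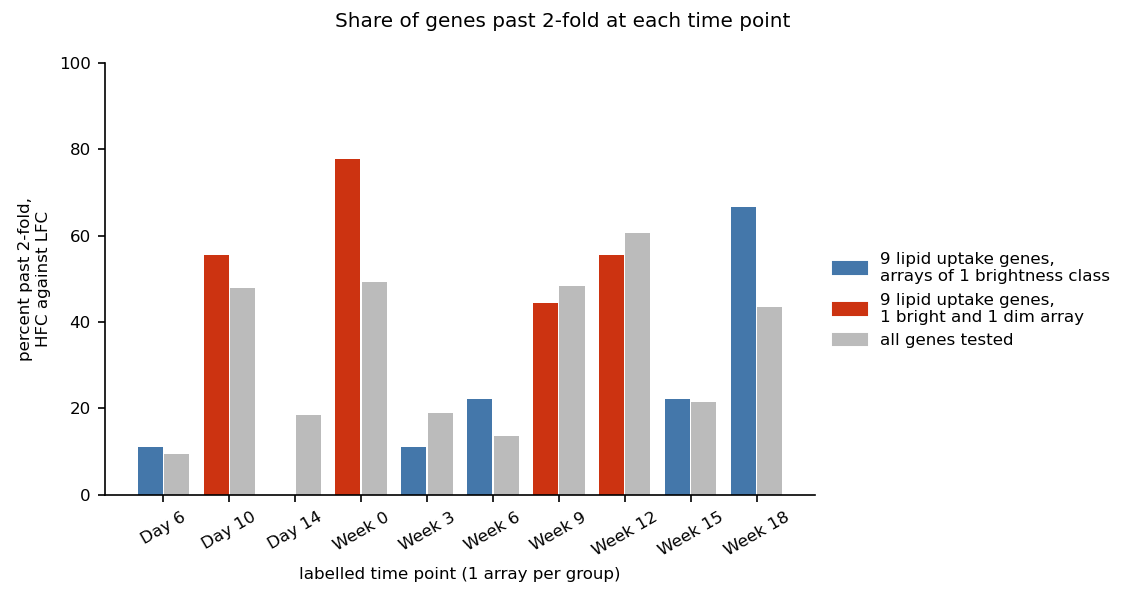
Share of the 9 members and of all 21623 genes tested whose HFC level differed from LFC by more than 2-fold at each time point, in percent. Member bars are blue where both arrays were in the same brightness class and red where they were not, and all genes are grey. The share of all genes ran from 9.37% on Day 6 to 60.6% at Week 12, and that of the members from 0 of 9 on Day 14 to 7 of 9 at Week 0.

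Other genes of lipid uptake were read from a list of 43, of which 39 were tested. In HFC against LFC 0 of the 39 passed, against 0% of all genes. At an unadjusted p under 0.05, 5 of the 39 were lower and 0 higher. Of all genes 6.58% passed so in either direction, with 4.51% higher. Apoc3, an apolipoprotein that slows the lipase, differed by -2.02 (SE 0.53, adjusted p = 0.664), and the acyl-CoA synthetase Acsl5 by -1.24 (SE 0.38). Apoc3 was low on the level scale, with means of -3.50 in LFC and -5.51 in HFC. The median of the list was -0.10 beside 0.05 for all genes.

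In HF20 against HFC 0 of the 39 passed, with 4 higher and 7 lower unadjusted. Of all genes 32.6% passed unadjusted in either direction, with 13.4% higher. The smallest p-values belonged to 3 further binding proteins, Fabp9 at -2.68 (SE 0.81), Fabp7 at -1.57 (SE 0.52) and Fabp12 at -1.40 (SE 0.47). Each had an adjusted p of 0.122. Adding the brightness class changed these differences to -1.10, -0.82 and -1.49 in the same order, each with an adjusted p of 0.974. All 3 were low on the level scale. Over all arrays of a group, their means were -2.09, -2.38 and -2.73 in HFC and -4.70, -4.41 and -3.82 in HF20. In the test among doses 6 of 39 passed, beside 13.6% of all genes. Cebpa and Ppara, transcription factors of fat storage and fat oxidation, Gm6484 and the transporter Slc27a4 were higher in HF20 than in HF5 by 2.29, 2.87, 1.85 and 1.43. Fabp9 and the endothelial lipase Lipg were lower, by differences of -3.05 and -2.58. Lipg too was low on the level scale, with means of -3.53 in HF5 and -6.11 in HF20. Without the array labelled HF75 Week 3, 0 of the 39 passed in that test. Once brightness was in the model the adjusted p-values of the 6 genes that had passed lay between 0.233 and 0.749.

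The genes most alike to each member were found by Pearson's r over the 38 arrays, after the group, the time point and the brightness class had been fitted out, with Lpl and Fabp4 read by their unsaturated probes. Fabp3 was most like LOC100047867, its near copy (r = 0.999), and next like Ucp1 (r = 0.973). Without the array labelled HF75 Week 3, Ucp1 had r = 0.889 and came at place 12, behind among others Sucla2, a subunit of the citric acid cycle (r = 0.935). Slc27a2 was most like Slc36a2, an amino acid transporter of brown and beige adipocytes (r = 0.954), though without that array it was Mrpl18 (r = 0.863). Fabp5 was most like Gm6166 (r = 0.900), and Fabp5l2, named as a Fabp5-like gene, came first without that array (r = 0.912).

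Gpihbp1 was most like Tinagl1, a secreted matrix protein (r = 0.879), and Vldlr most like Fam82b (r = 0.917). Cd36 was most like Sharpin (r = 0.910), Fabp4 like the proteasome subunit Psmb1 (r = 0.919), Angptl4 like the cohesin subunit Rad21 (r = 0.901), Lpl like Tsc1 (r = 0.885) and Slc27a1 like Giyd2 (r = 0.836). Without the HF75 array of Week 3, LOC100048299 came first for Gpihbp1 (r = 0.854), with Tinagl1 at place 3 (r = 0.826). Then 9630050M13Rik came first for Cd36 (r = 0.914) and Rlim for Angptl4 (r = 0.904). The first genes of Lpl, Fabp4, Slc27a1 and Vldlr were as before, with r between 0.799 and 0.892. Among the members, Fabp3 and Slc27a2 had r = 0.910, which was 0.603 without that array. Slc27a2 and Vldlr had r = 0.815, and 0.660 without it. Both genes of a pair share the RNA and the scaling of each array, so these values describe the arrays and carry no test.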

How the data were processed

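Total RNA of brown adipose tissue was labelled with Cy3 and hybridised to mouse Agilent arrays of 1 colour, per the labels. The deposited scanner files hold intensity values from Feature Extraction (10.5.1.1 in the file headers, 9.1 in the submitters' processing notes), whose processed signal the authors' software had freed of background without scaling the arrays to each other. The authors also deposited a table of log2 values, each set against LFC at its own time point. Its 4 Week 15 columns correlated with the scanner files at -0.0041 to 0.0036 by probe name, and 24 other columns at 0.993 to 1.000, so it was used only as an alternative. Every sample column was mapped (0 left over).

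Levels are log2 of the processed signal after subtraction of the array's own 75th percentile on that scale. The highest of a gene's probes by mean was kept, and genes passing the background test on 6 arrays or more were tested. Fits used limma 3.58.1 (lmFit, eBayes) in R 4.3.3, two-sided, with Benjamini-Hochberg adjustment over all 21623 genes and a threshold of 0.05, with the time point as a block except for the trend over days. Adjusted p-values in the text are from limma. Intervals are at 95%. The number of arrays and the signal over background limit the precision. Chromosome positions were not used here. In the other comparisons the 3 members with the smallest p were named. From the list of other genes, 1 gene that the rule selects is not reported here. Tested on simulated data with 200 changed genes among 21623, the HFC against LFC fit recovered 198 of them, with 18 false calls, and the HF20 against HFC fit 199, with 13. The planted changes were large, each several times the gene's residual SD. The simulated noise was normal, with shifts by time point but without brightness classes or saturation. The recovery therefore checks that the fits run correctly and does not give their power in these data. Summaries and plots were made in Python 3.11.15 with pandas 2.3.3, numpy 2.4.6 and matplotlib 3.10.9, with the data.table package (1.17.8) as reader in R.

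The members and gene lists were chosen with earlier results of these data known. Alternatives covered background correction, normalization, the filter on dim probes, brightness, slide and scan day, array weights, a muscle covariate, the time point block, each time point left out and the deposited table. Unsaturated probes and leaving out the HF75 array of Week 3 were added after seeing the data.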

Additional observations from a re-analysis of the deposited data

Results flagged for a closer look

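In 11 of the 50 sets of 1 member in 1 group, the highest or lowest array stood far from the others by Dixon's gap criterion. For independent, normal values about 1 in 20, or 2.5 sets, would be flagged. The sets share the same arrays and mix bright with dim ones, so that number is no valid expectation here. Of the 11 sets, 3 were flagged for the array labelled HF75 Week 3: Fabp3 at -1.24, Slc27a2 at -4.65 and Gpihbp1 at 5.84. Each was the lowest of the 6 HF75 arrays. It was the only bright array of HF75. Its Gpihbp1 value was above those of the 10 other bright arrays, which lay between 3.93 and 5.09. The mean of the brown adipocyte markers on that array was below those of all 37 others. The part of these markers in the 3 values was not tested. In HF5, Gpihbp1 was low at Week 3 (7.27), Cd36 low at Week 12 (4.94) and Fabp4 by its unsaturated probe high at Week 18 (6.51). In HF20, Lpl was low at Week 9 (5.06) and Fabp3 low at Week 18 (5.53), both dim arrays among brighter ones. Cd36 was high in HF75 at Week 18 (7.65), Slc27a1 high in HFC at Week 18 (2.29) and Fabp5 low in LFC at Week 3 (-0.33).

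The doses differed from each other in Fabp5 (adjusted p = 0.0365, limma) and Gpihbp1 (adjusted p = 0.0377, limma). HF20 was the lower group in both, and 4 of its 6 arrays were bright. The part of brightness beyond the model with its class was not tested.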

How the results depend on the processing

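In HFC against LFC, 0 members passed under every alternative run, and 0 to 7 of all genes did. With saturated spots left out, Fabp3 and Angptl4 had too few arrays left and were not fitted. The study's methods name a t-test within each time point. Here a t-test was run over all HFC and LFC arrays, pooled over time points without the block. It called 861 genes and 0 members at an unadjusted p under 0.05, and 0 genes after Benjamini-Hochberg. The 2 members called among the doses became 0 with normexp, no filter on dim probes, brightness as a class or as log2, the muscle covariate, either form of the deposited table, unsaturated probes with the class, or without the HF75 array of Week 3. They became 5 with a filter on every array or slide as a random block and 6 with array weights. Leaving out a time point gave 0 to 4 (0 without Week 3, 6, 12 or 15, and 4 without Week 9 or 18). Over all alternatives 0 to 6390 of all genes were called there. Array weights called 4 members for HF20 against HFC (Fabp5, Gpihbp1, Slc27a2, Vldlr) and 1 for the product of diet and day (Slc27a1). The number of 2-fold differences was 29 to 33 under the processing alternatives, and 26 to 33 without a time point. Scan day could not be fitted as a block for the trend. The cause of these moves was not tested.

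The time point is the block, since arrays share only a label of time. With no replicate block, 1 member was called among the doses, and the block changed no other count of members called.

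For HFC against LFC, Lpl turned sign to 0.11 with the class, 0.22 with log2 brightness, 0.11 with array weights, 0.12 in the deposited table, and 0.08 with the unsaturated probe and class, and ran from -0.24 to 0.08 without a time point. Gpihbp1 turned to -0.20 with log2 brightness and -0.14 at time points of equal brightness, where Cd36 turned to -0.08. Angptl4 turned to 0.06 with quantile normalization, 0.01 with slide, 0.10 with array weights and 0.12 or, without Week 15, 0.01 in the deposited table, with -0.17 to 0.16 without a time point. Fabp5 turned to 0.01 with quantile normalization and 0.09 or 0.01 in the table, with -0.15 to 0.07 without a time point. Slc27a1 turned to -0.07 with normexp and -0.01 or -0.05 in the table, with -0.06 to 0.40 without a time point. Slc27a2 turned to 0.53 with the class, 0.86 with log2 brightness, 0.02 with scan day, 0.21 with array weights and 0.49 at equal brightness, with -1.03 to 0.06 without a time point. Vldlr turned to 0.16, 0.42 and 0.31 with the class, log2 brightness and equal brightness. In Weeks 3 to 18, Gpihbp1 turned to -0.04 and -0.24 and Vldlr to 0.44 and 0.70 with the class and log2 brightness, and Slc27a1 to -0.01 with normexp. In HF20 against HFC, Vldlr turned to -0.07 at equal brightness and Gpihbp1 to 0.08 with the class and 0.16 at equal brightness. Among doses Vldlr turned to -0.26 with the class. In the trend Gpihbp1 turned to -0.01 with normexp and -0.22 with log2 brightness, Lpl to 0.05 with the unsaturated probe and class, and Slc27a1 ran from -0.10 to 1.18 without a time point. Fabp3 kept its direction in HFC against LFC under all alternatives in which it was fitted, with 0.75 to 1.39 without a time point. It was not fitted with saturated spots left out, and it had no unsaturated probe. The part of saturation in its difference was therefore not tested.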
